A study of Danio rerio with 11 samples.

Results

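The motors that move along microtubules, the adaptors that tie them to cargo, and the tubulins that build the tracks were followed in zebrafish oocytes with and without a mutation of znf706. Members were chosen by gene symbol: numbered kinesins (kif), the heavy, intermediate and light intermediate chains of cytoplasmic dynein (dync), the dynein light chains (dynll, dynlt, dynlrb), dynactin subunits (dctn), the adaptors hook and bicd, and genes whose symbols begin with tuba, tubb or tubg, which include the gamma-tubulin complex proteins (tubgcp). The symbols matched 88 gene IDs. The 61 gene IDs with at least 1 FPKM (fragments counted on a gene, scaled to its transcript length and to library size) in at least 2 of 8 libraries were kept as members, out of 13862 genes that passed the same minimum and 31952 gene IDs in all. Just inside the minimum lay kif26ba, with 1.02 and 1.30 FPKM in its highest pair of libraries, and just outside lay kif3cb, with 1.27 and 0.920 FPKM. The 27 matching IDs below it included bicd2, so no bicd gene was a member.

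Wild-type (WT) oocytes were compared with oocytes of fish carrying the CRISPR/Cas9 allele znf706 tsu7d on both chromosomes (genotype label MZznf706), at stage I and at stage II of oogenesis. The gene encodes a zinc finger protein, and the title of the series ties it to germ plasm and primordial germ cells. Ovaries of 3-month-old females were digested with a cell dissociation buffer, and oocytes were picked by hand, about 600 at stage I and 150 at stage II for the polyadenylated RNA of each library. Each of the 4 groups (WT and mutant at each stage) has 2 libraries, called biological replicates by the submitters. How many fish gave the oocytes of a library is not stated, so p-values measure the spread between these pools.

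Kinesins use ATP to walk along microtubules or to shorten their ends, mostly toward the plus end, whereas cytoplasmic dynein works with dynactin and an adaptor to carry cargo toward the minus end. The tracks are polymers of alpha and beta tubulin, nucleated by ring complexes of gamma tubulin. In zebrafish oocytes and embryos, microtubules and the kinesin-1 heavy chain Kif5Ba take part in placing germ plasm and the determinants of the dorsal side.

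Summed FPKM per library ran from 653659 to 899582, 11992 to 12691 genes reached 1 FPKM, and the members held 0.786% to 1.16% of the sum. Read counts were not used here, so the depth behind a value is unknown. Transcripts of znf706 itself (ENSDARG00000056307) were at 232 and 238 FPKM in WT against 181 and 147 FPKM in mutant stage I libraries, and at 158, 143, 129 and 142 FPKM at stage II in the same order. Which part of the transcript the allele alters is not stated, so these levels do not check the genotype labels. None of 12 oocyte markers was listed at 0 in both libraries of a group. Their summed FPKM was 4939 to 5562 in WT and 5792 to 6031 in mutants at stage I, and 4300 to 4368 against 3414 to 3641 at stage II. Levels below are FPKM, a scale per transcript length on which genes can be compared, while each log2 fold change, given ± SE, was computed on log2(FPKM + 1), a scale that makes changes of low genes look smaller.

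At stage I, 22 of the 61 members were higher and 10 lower in mutants, or 36.1% and 16.4%, where 18.4% of all genes tested were higher and 26.9% lower. At stage II, 18 were higher and 9 lower, or 29.5% and 14.8%, against 25.4% and 19.2% of all genes. The median log2 fold change of the members was 0.05 at stage I and 0.14 at stage II, beside medians of -0.08 and 0.07 over all genes. The genes that rose at both stages were 12 members, among them kif7, both hook2 genes, tuba1a and tuba1b, or 19.7% of the members beside 8.33% of all genes. The light chain gene dynll1 and the beta-tubulin gene tubb4b rose at stage I and fell at stage II, or 3.28% of the members beside 2.09% of all genes. The stage I rise of tubb4b was lost under 14 alternative settings. Passing in neither stage were 17 members, or 27.9% beside 33.4% of all genes.

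Calls are adjusted p under 0.05 over all genes in a limma fit. The counts moved with single libraries. Without mutant stage I replicate 2, 14 members were called at stage I in place of 32, and 31.6% of all genes in place of 45.3%. At stage II fewer than the 27 members were called whichever stage II library was left out, and fewer of all genes were called as well. Under median-of-ratios scaling the stage II split of 18 higher and 9 lower became 14 and 12. The higher share of all genes called went from 57% to 47.3%. Kept under each of the 18 alternatives that tested the gene were 15 of the 32 stage I calls and 11 of the 27 stage II calls. Not every alternative tested every gene, and with a minimum mean of 5 FPKM only 46 members were tested. Among the 15 were kif1aa, kif26ab, tuba1a and tubb6, and among the 11 was tuba1a, all genes that reached the minimum in 1 genotype alone. Of the members, 50 at stage I and 54 at stage II had at least 1 FPKM in all 4 libraries compared. Of these, 18 and 16 were higher and 7 and 9 lower, and the share over all genes was not counted in this way. The minimum was reached in 1 genotype alone by 6 members (kif1aa, kif26ab, kif26ba and tuba1a in mutants, dynlrb2 and tubb6 in WT), so a genotype difference was built into their choice, and their values are given as a description. Without them 18 of 55 members were higher and 8 lower at stage I, and 16 and 9 at stage II. At both stages 10 rose. These counts were made after the values were seen. The shares over all genes, 18.4% and 26.9% at stage I and 25.4% and 19.2% at stage II, still hold such genes.

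**Figure D1:**
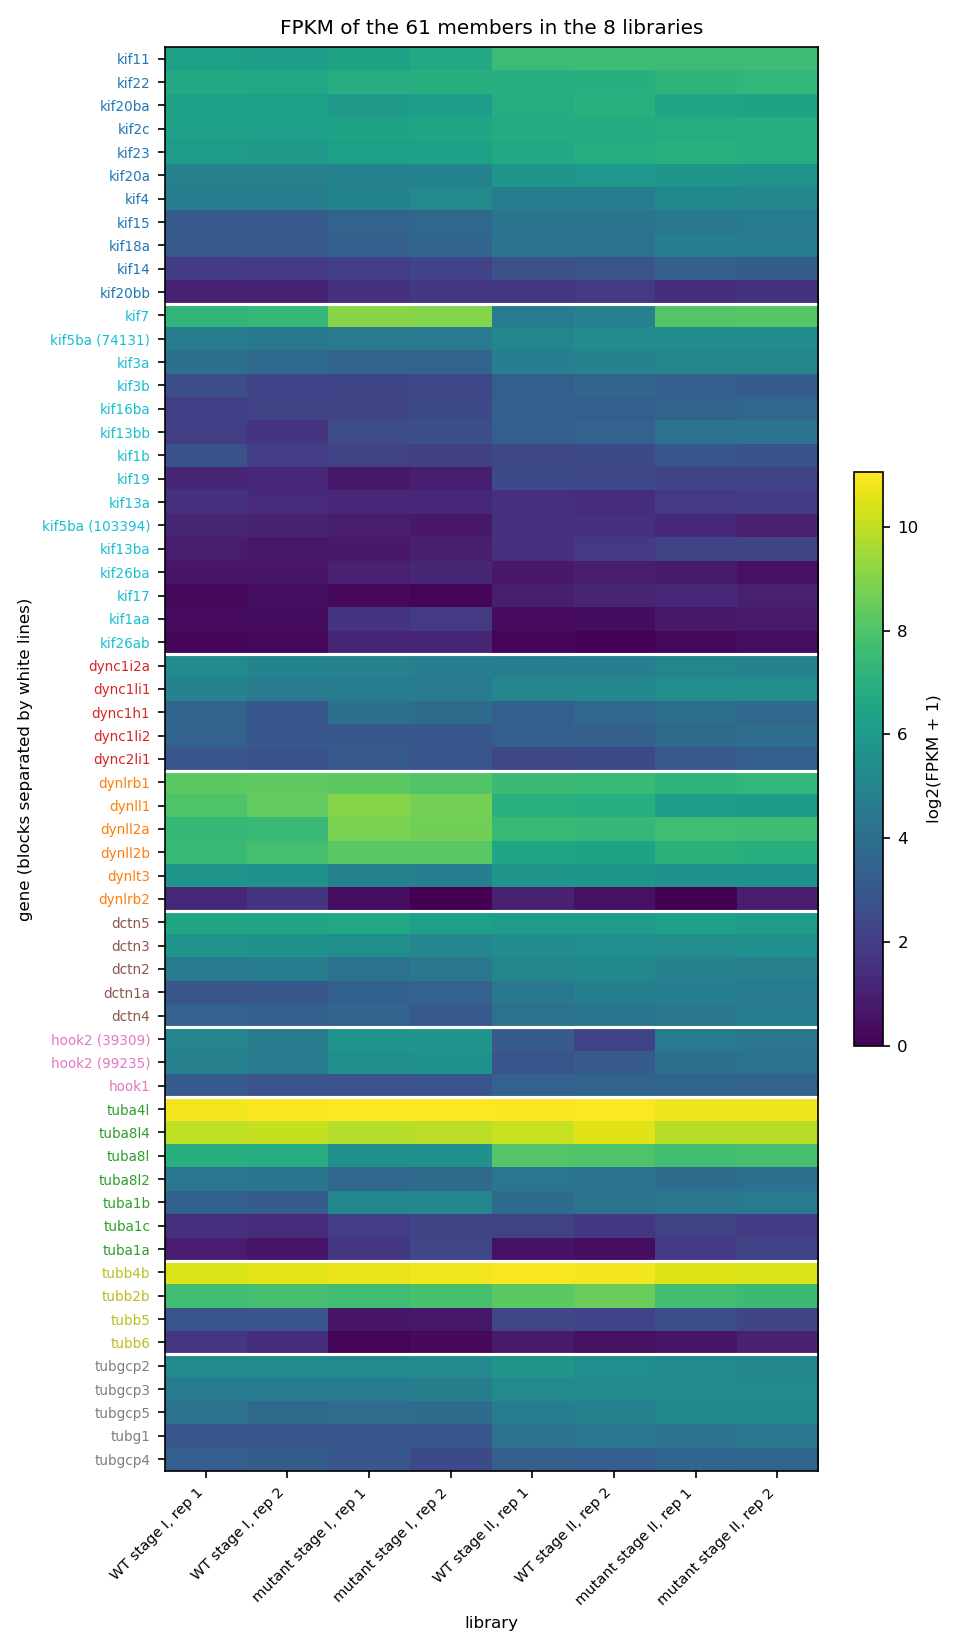
Level of the 61 members in each of the 8 libraries, as log2(FPKM + 1) in colour, with genes in rows grouped by role and libraries in columns. The tubulins tuba4l, tuba8l4 and tubb4b are the brightest rows in every library, and the row of kif7 is bright in mutants at both stages.

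**Figure D2:**
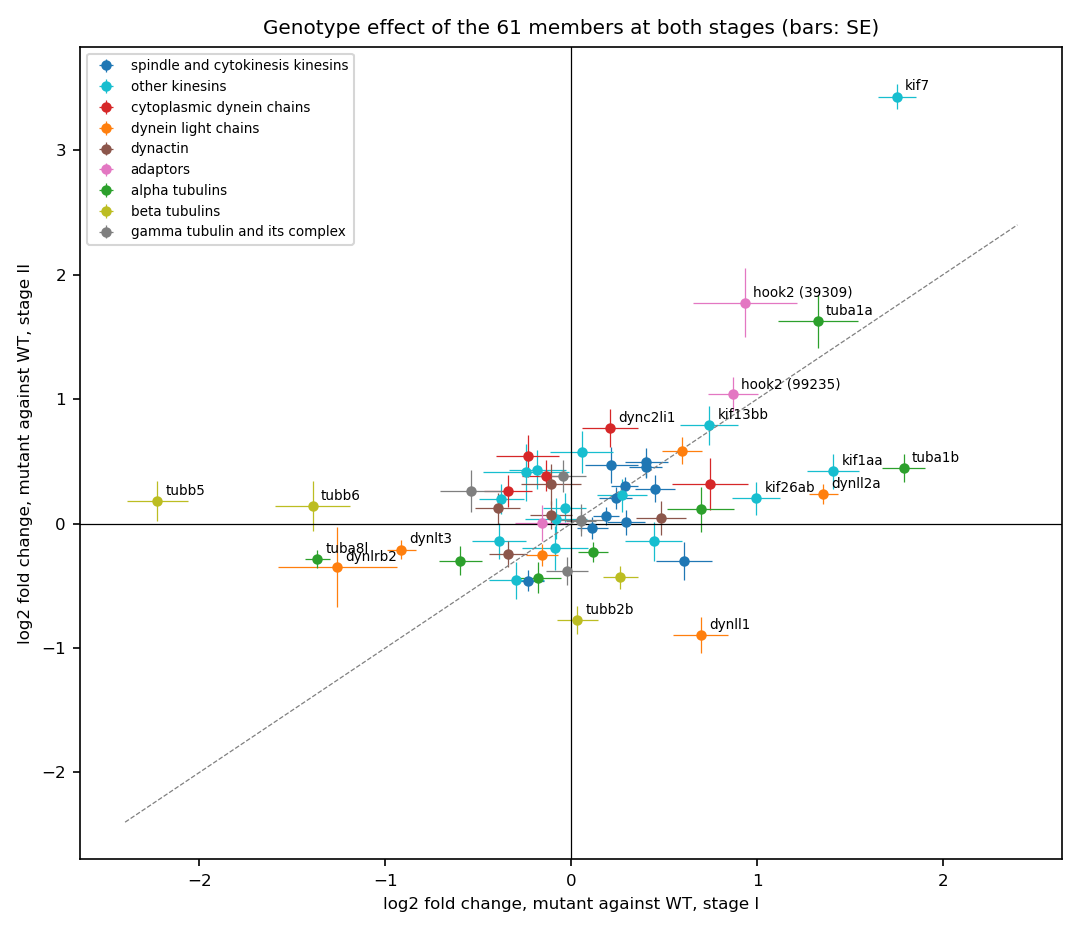
Log2 fold change between mutant and WT at stage I (horizontal) against stage II (vertical) for the 61 members, with bars of 1 SE and colours for roles; the dashed line marks equal change. The gene kif7 lies farthest from the origin, at 1.75 and 3.43, while dynll1 and tubb5 lie far from the dashed line.

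Among the kinesins outside cell division, the largest genotype difference was in kif7 (ENSDARG00000033099), a kinesin-4 family member that regulates Hedgehog signalling at the tip of the primary cilium. Its level was 149 and 163 FPKM in WT against 548 and 507 FPKM in mutants at stage I. At stage II it was 22.6 and 27.9 FPKM in WT against 276 and 285 FPKM in mutants. All 4 mutant libraries lay above all 4 WT libraries, with no overlap at either stage. The mean was 3.38-fold higher at stage I (log2 fold change 1.75 ± 0.10, adjusted p = 1.3e-05) and 11.1-fold higher at stage II (3.43 ± 0.10, adjusted p = 5.0e-07). The effect was larger at stage II, as an interaction of 1.68 ± 0.15 (adjusted p = 0.00016) shows: kif7 fell by 2.59 ± 0.10 on the log2 scale from stage I to stage II in WT but by 0.91 ± 0.10 in mutants. All 5 of these calls held under every alternative. The genes beside kif7 in the order of the GRCz12tu assembly were looked up after its values were seen. On 1 side rhcga had at most 0.480 FPKM in any library, below the minimum, and was not tested. On the other side mrps11 fell by 0.43 ± 0.11 at stage I and 0.32 ± 0.11 at stage II on the log2 scale.

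The kinesin-3 gene kif13bb, whose mammalian relative KIF13B carries membrane cargo, rose at both stages as well. Its level was 3.16 and 2.23 FPKM in WT against 5.01 and 5.25 FPKM in mutants at stage I, and 8.93 and 10.2 against 17.1 and 17.4 FPKM at stage II. The groups did not overlap, and the log2 fold changes were 0.74 ± 0.16 (adjusted p = 0.0065) and 0.79 ± 0.16 (adjusted p = 0.0053). Its paralog kif13ba was called at stage II (0.57 ± 0.17, adjusted p = 0.028), which was lost under 7 alternatives, 3 of them leaving out a library.

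A pair of kinesins were near 0 in WT. The neuronal vesicle motor gene kif1aa was at 0.240 and 0.296 FPKM in WT against 2.12 and 2.63 FPKM in mutants, and kif26ab, of a kinesin family without motility in mammals, at 0.0972 and 0.171 against 1.26 and 1.25 FPKM. At stage II the same genes stood at 0.259 and 0.275 against 0.665 and 0.729 FPKM, and at 0.107 and 0.0854 against 0.197 and 0.328 FPKM. The mutant libraries were higher in each case, by less at stage II. The log2 differences at stage I were 1.41 ± 0.14 for kif1aa and 0.99 ± 0.13 for kif26ab. Both reached 1 FPKM in the mutant stage I libraries alone, which chose them, so no test of stage I is given. The stage II log2 difference of kif1aa, 0.42 ± 0.14, is given as a description too. It is among the stage II calls counted above, and was lost under 10 alternatives.

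The kinesin-1 heavy chain gene kif5ba, the germ plasm motor, is carried by a pair of gene IDs. The abundant one (ENSDARG00000074131) had 25.1 and 21.2 FPKM in WT against 22.1 and 22.9 FPKM in mutants at stage I, and 32.8 and 39.8 against 39.7 and 39.4 FPKM at stage II. The groups overlapped at both stages and neither difference passed (-0.04 ± 0.12, adjusted p = 0.83, and 0.13 ± 0.12, adjusted p = 0.41). The low copy (ENSDARG00000103394) had 1.94 and 2.02 FPKM in WT against 1.34 and 1.01 FPKM in mutant stage II oocytes (-0.46 ± 0.15, adjusted p = 0.036), a call lost under 10 alternatives. How the deposited quantification divided reads between near-identical genes is not given, so values of such pairs are uncertain.

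The remaining kinesins of this group follow. The kinesin-2 genes kif3a and kif3b, whose products drive intraflagellar transport, stood at 15.7 and 12.6 against 10.53 and 10.72 FPKM and at 5.22 and 3.69 against 4.03 and 4.12 FPKM at stage I. Only kif3a passed, lower by 0.38 ± 0.12 on the log2 scale (adjusted p = 0.036), and the call was lost under 8 alternatives, 5 of them leaving out a library. The third gene chosen through the mutant stage I libraries, kif26ba, had 0.592 and 0.580 against 1.02 and 1.30 FPKM there. No genotype difference passed for kif13a, kif16ba, kif17, kif19 or kif1b. Of all 15 members of the group, 5 were higher and 1 lower at stage I, and 4 higher and 1 lower at stage II. Without the 3 genes chosen through mutant libraries these were 2 and 1 of 12, then 3 and 1. The shares over all genes that follow still hold genes chosen in this way. Over all genes 18.4% were higher and 26.9% lower at stage I, and 25.4% and 19.2% at stage II.

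Of the 11 kinesins of the spindle and of cytokinesis, 6 were higher and 0 lower in mutants at stage I in the limma fit, where 18.4% of all genes were higher and 26.9% lower. At stage II 4 were higher and 1 lower, beside 25.4% and 19.2% of all genes. At an unadjusted p under 0.05 the stage I counts were 8 higher and 1 lower. Their median log2 fold changes were 0.29 and 0.21, beside -0.08 and 0.07 over all genes. The chromokinesin gene kif4 had 25.03 and 24.57 FPKM in WT against 30.9 and 35.4 FPKM in mutants at stage I, and 24.3 and 24.8 against 34.6 and 33.3 FPKM at stage II. The mutant libraries were higher at both stages, by 0.40 ± 0.09 (adjusted p = 0.0077) and 0.45 ± 0.09 (adjusted p = 0.0050). Leaving out the second mutant stage I library undid the stage I call.

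Another chromokinesin gene, kif22, was the most abundant of the group at stage I and had 99.6 and 97.4 FPKM in WT against 117 and 124 FPKM in mutants, and then 124.11 and 123.02 against 145 and 161 FPKM at stage II. Its groups did not overlap, and the changes were 0.29 ± 0.07 (adjusted p = 0.013) and 0.30 ± 0.07 (adjusted p = 0.012). The gene kif18a, whose product dampens chromosome movements at metaphase, rose by 0.40 ± 0.12 (adjusted p = 0.024) and 0.49 ± 0.12 (adjusted p = 0.011). Of these 4 calls, each was lost on leaving out at least 1 library. The same held for the stage I rises of kif11 (0.30 ± 0.10, adjusted p = 0.046), kif15 (0.45 ± 0.11, adjusted p = 0.011), which encode motors that push spindle poles apart, and kif20bb (0.61 ± 0.15, adjusted p = 0.014), and for the stage II rise of kif14 (0.47 ± 0.14, adjusted p = 0.029).

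The exception was kif20ba, a kinesin-6 gene of cytokinesis. It had 113 and 129 FPKM in WT against 89.8 and 85.5 FPKM in mutants at stage II, and fell by 0.46 ± 0.09 on the log2 scale (adjusted p = 0.0039) under every alternative. At stage I it stood at 78.2 and 77.4 against 62.6 and 69.6 FPKM, which missed the threshold (-0.23 ± 0.09, adjusted p = 0.057). The cytokinesis genes kif20a and kif23 and the microtubule depolymerase gene kif2c passed at neither stage.

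Over all genes 18.4% were higher and 26.9% lower in mutants at stage I, and 25.4% and 19.2% at stage II. Of the 5 cytoplasmic dynein chain genes, 1 was higher in mutants at stage I and 3 at stage II. At either stage 0 were lower in the limma fit (1 lower at stage I and 0 at stage II at an unadjusted p under 0.05). The largest stage II rise was in dync2li1, a light intermediate chain of dynein-2, the motor of retrograde intraflagellar transport. It had 4.34 and 4.64 FPKM in WT against 7.47 and 9.31 FPKM in mutants (0.77 ± 0.15, adjusted p = 0.0052), and this call held under every alternative. The dynein-1 light intermediate chain genes dync1li1 and dync1li2, which bind adaptors, had 32.7 and 33.6 against 43.8 and 43.3 FPKM and 8.92 and 9.53 against 13.3 and 14.5 FPKM. Mutant libraries were the higher ones, but the calls (0.38 ± 0.13, adjusted p = 0.039, and 0.54 ± 0.17, adjusted p = 0.034) were lost under 7 and 8 alternatives, among them the omission of each stage II library in turn. The heavy chain gene dync1h1, which encodes the motor itself, was called at stage I (0.75 ± 0.21, adjusted p = 0.020), from 10.4 and 6.95 FPKM in WT to 15.98 and 14.02 FPKM in mutants. That call was lost under 4 alternatives, and the intermediate chain gene dync1i2a passed at neither stage.

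Dynactin, the complex that makes dynein processive, gave 1 higher and 2 lower of 5 members at stage I in the limma fit. It gave none in either direction at stage II (0 higher and 1 lower at an unadjusted p under 0.05). The shares over all genes were 18.4% and 26.9% at stage I and 25.4% and 19.2% at stage II. The gene dctn1a, which encodes the p150Glued subunit that grips microtubules, had 6.77 and 6.93 FPKM in WT against 9.87 and 10.04 FPKM in mutants at stage I (0.48 ± 0.13, adjusted p = 0.021). The genes dctn2 and dctn3 were lower (-0.34 ± 0.10, adjusted p = 0.029, and -0.40 ± 0.12, adjusted p = 0.032). All 3 calls were lost on leaving out at least 1 library, and both falls were lost under quantile and median-of-ratios scaling. The remaining subunit genes dctn4 and dctn5 passed at neither stage.

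Of the adaptors, both gene IDs named hook2 rose at both stages. Hook proteins link dynein and dynactin to cargo, and mammalian HOOK2 is found at the centrosome. The first (ENSDARG00000099235) had 27.5 and 22.3 FPKM in WT against 44.97 and 47.30 FPKM in mutants at stage I, and 6.45 and 8.13 against 15.7 and 16.2 FPKM at stage II. The second (ENSDARG00000039309) had 31.6 and 23.8 against 54.0 and 52.7 FPKM, and 7.92 and 3.65 against 23.2 and 19.1 FPKM. Mutant and WT libraries did not overlap for either ID at either stage, and the WT stage II libraries were the lowest. The ratios of the means were 1.85 and 1.92 at stage I and 2.19 and 3.66 at stage II, in that order. The log2 changes at stage II were 1.04 ± 0.14 (adjusted p = 0.00076) and 1.78 ± 0.28 (adjusted p = 0.0018). The stage I call of the second ID (0.93 ± 0.28, adjusted p = 0.028) was lost under 4 alternatives, 3 of them leaving out a library, while that of the first (0.87 ± 0.14, adjusted p = 0.0015) held under every alternative. The IDs share a name and may share reads, and hook1 stood at 6.10 to 8.05 FPKM at stage I and 10.29 to 10.98 FPKM at stage II with no genotype difference that passed.

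**Figure D3:**
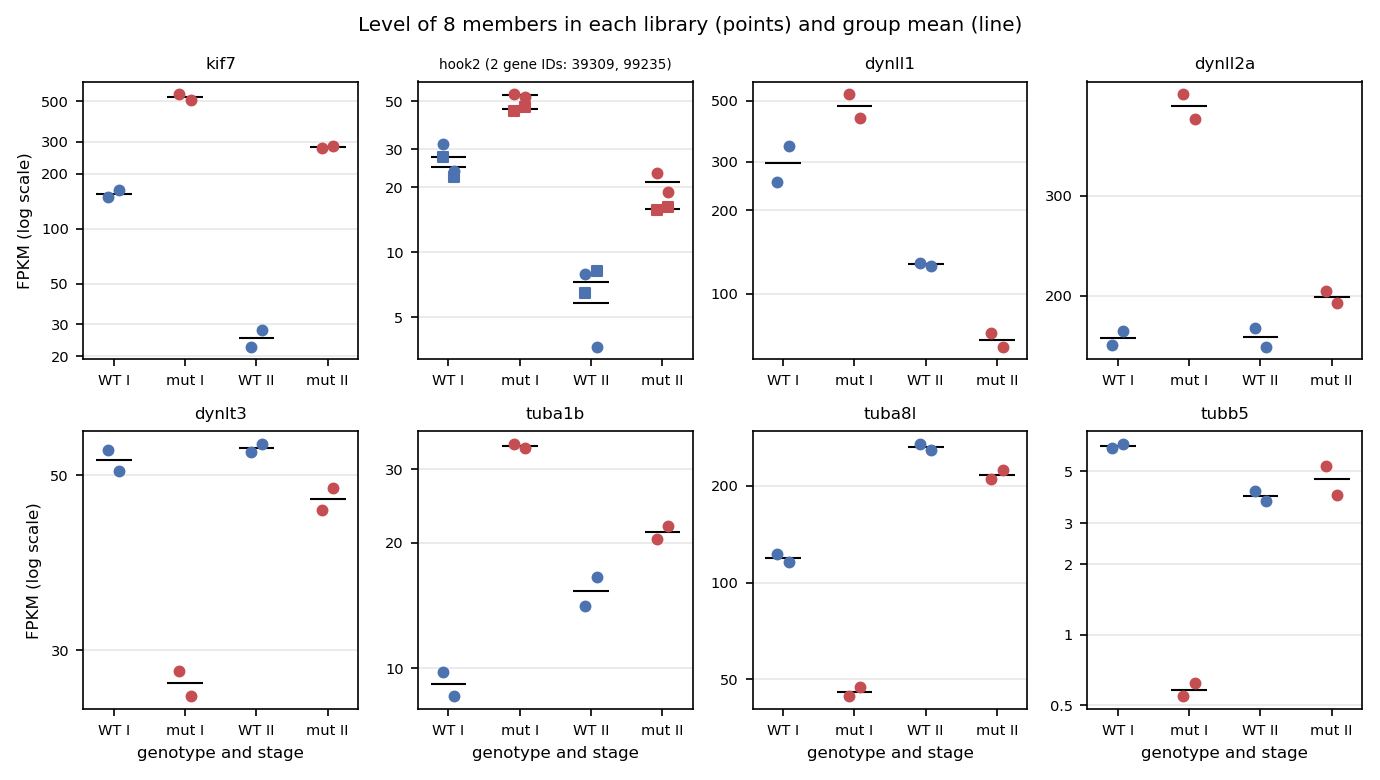
FPKM (log axis) of 8 members in each library (points) with the group mean of 2 libraries (black lines), for WT (blue) and mutant (red) at stages I and II; for hook2, circles and squares are its 2 gene IDs. Mutant points lie above WT points at both stages for kif7 and hook2, above at stage I and below at stage II for dynll1, and far below at stage I alone for tubb5.

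The dynein light chains, small dimers that bind dynein and also many other proteins, held 959 and 1112 summed FPKM in WT stage I, 1615 and 1432 in mutant stage I, 635 and 604 in WT stage II and 603 and 590 in mutant stage II libraries. The mutant sums were the highest at stage I, and those at stage II lay close together. Within the sums the 3 LC8-type genes moved unequally. The gene dynll1 had 254 and 341 FPKM in WT against 528 and 432 FPKM in mutants at stage I, and 129 and 126 against 72.1 and 64.2 FPKM at stage II. It was higher in both mutant libraries at stage I (0.70 ± 0.15, adjusted p = 0.0065) and lower in both at stage II (-0.90 ± 0.15, adjusted p = 0.0022), with an interaction of -1.59 ± 0.21 (adjusted p = 0.0012). All 3 calls held under every alternative.

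The paralog dynll2a had 163 and 173 FPKM in WT against 454 and 411 FPKM in mutants at stage I, a 2.57-fold difference of means (1.36 ± 0.08, adjusted p = 1.1e-05). At stage II it had 175 and 162 against 204 and 194 FPKM. The groups did not overlap there either, but that call (0.24 ± 0.08, adjusted p = 0.039) was lost under 7 alternatives, among them leaving out any 1 stage II library. The gene dynll2b rose alike at both stages, from 177 and 220 to 299 and 299 FPKM at stage I (0.60 ± 0.11, adjusted p = 0.0033) and from 89.7 and 81.5 to 135.2 and 122.6 FPKM at stage II (0.58 ± 0.11, adjusted p = 0.0039). Its interaction was -0.01 ± 0.15 (adjusted p = 0.96), against -1.12 ± 0.11 (adjusted p = 0.00028) for dynll2a. The share of dynll1 in the light chain sum was 26.5% to 32.7% in all stage I libraries, 20.3% and 20.8% in WT stage II and 11.95% and 10.89% in mutant stage II libraries.

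Of the other light chains, the Tctex-type gene dynlt3 went down. It had 53.8 and 50.6 FPKM in WT against 28.3 and 26.2 FPKM in mutants at stage I, and 53.4 and 54.7 against 45.2 and 48.1 FPKM at stage II. The stage I fall of 0.91 ± 0.08 in log2 passed (adjusted p = 8.1e-05), the stage II value of -0.21 ± 0.08 did not (adjusted p = 0.059), and the interaction was 0.70 ± 0.11 (adjusted p = 0.0024). The roadblock-type gene dynlrb1 had the highest mean of the light chains over the WT libraries, with 309 and 325 FPKM at stage I, and its call at stage II (-0.26 ± 0.09, adjusted p = 0.046) was lost under 9 alternatives. Its relative dynlrb2 was at 1.33 and 2.31 FPKM in WT against 0.348 and 0 FPKM in mutant stage I libraries; a listed 0 may be a failed estimate, and the gene reached 1 FPKM in WT libraries alone, so no test is given.

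**Figure D4:**
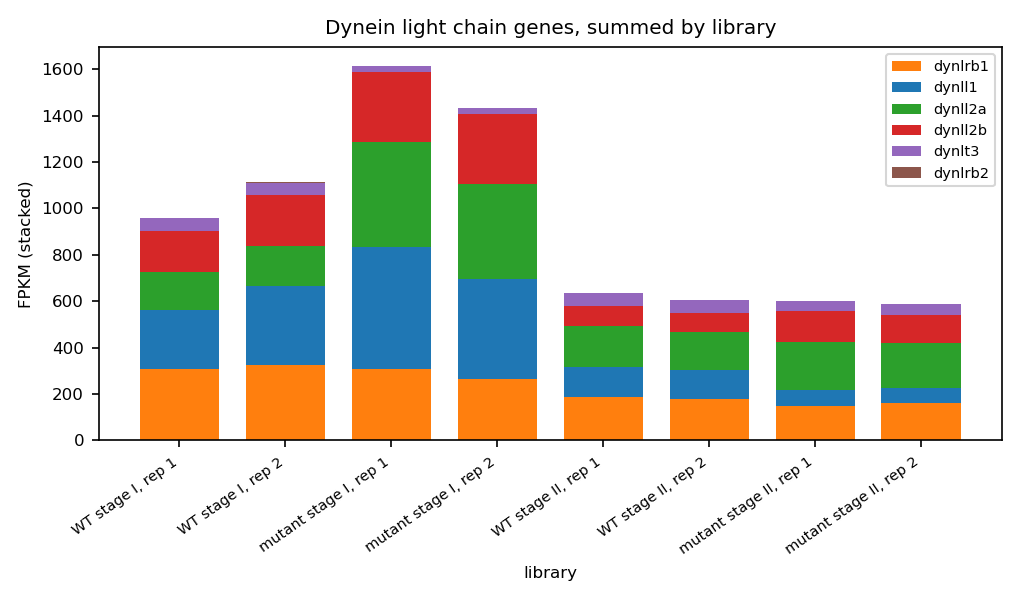
Stacked FPKM of the 6 dynein light chain genes in each of the 8 libraries. The mutant stage I bars reach 1615 and 1432 FPKM, above 959 and 1112 FPKM in WT, mainly through the dynll2a (green) and dynll1 (blue) segments.

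Alpha-tubulin transcripts came mostly from tuba4l and tuba8l4. In every library tuba4l made up 54.5% to 67.8% of the alpha-tubulin FPKM and tuba8l4 29.1% to 37.8%. Neither passed at stage I, with log2 fold changes of 0.12 ± 0.08 for tuba4l and -0.18 ± 0.12 for tuba8l4. No genotype difference passed for tuba4l in the main fit, though it passed as lower at stage II when either WT stage I library was left out. The gene tuba8l4 was lower at stage II alone (-0.44 ± 0.12, adjusted p = 0.023), at 1103 and 1449 against 944 and 925 FPKM. That call was lost under 5 alternatives, 3 of them leaving out a library. The summed alpha-tubulin FPKM was 3054 and 3259 in WT and 3140 and 3143 in mutants at stage I, and 3474 and 3833 against 2970 and 2965 at stage II. The sums overlapped at stage I and did not at stage II.

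The minor alpha tubulins differed more at stage I. The gene tuba8l (ENSDARG00000042708, tuba5 in the reference names) had 122 and 116 FPKM in WT against 44.2 and 47.2 FPKM in mutants at stage I, and 270 and 259 against 210 and 224 FPKM at stage II. Mutant libraries were lower at both stages, with a stage I log2 fold change of -1.36 ± 0.07 (adjusted p = 6.3e-06). The stage II call (-0.28 ± 0.07, adjusted p = 0.013) did not hold when WT replicate 1 or mutant replicate 1 was left out. The effects differed by 1.08 ± 0.10 between the stages (adjusted p = 0.00021). The related tuba8l2 was lower at stage I, with 19.3 and 18.7 against 11.5 and 13.1 FPKM (-0.60 ± 0.12, adjusted p = 0.0044).

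The 3 tuba1 genes lie within 4 consecutive genes in the GRCz12tu order, and were higher in mutants at stage I. The gene tuba1b had 9.82 and 8.57 FPKM in WT against 34.5 and 33.8 FPKM in mutants at stage I, and 14.1 and 16.5 against 20.40 and 21.99 FPKM at stage II. The change was 1.79 ± 0.11 at stage I (adjusted p = 1.9e-05) and 0.44 ± 0.11 at stage II (adjusted p = 0.015), the second lost without WT replicate 1 or mutant replicate 2, and the interaction was -1.34 ± 0.16 (adjusted p = 0.00076). The gene tuba1a, in fish a tubulin of growing neurons, had 0.775 and 0.564 against 2.44 and 4.08 FPKM, and 0.466 and 0.344 against 2.94 and 3.76 FPKM. The log2 differences were 1.33 ± 0.21 and 1.62 ± 0.21, given without a test because tuba1a reached 1 FPKM in mutant libraries alone. The gene tuba1c was called at stage I (0.70 ± 0.18, adjusted p = 0.016), which leaving out WT replicate 2 or mutant replicate 2 undid, and had 3.35 and 2.51 against 3.58 and 2.91 FPKM at stage II, which overlapped and did not pass (0.11 ± 0.18, adjusted p = 0.64). Together the 3 genes made up a small part of alpha tubulin, and the largest share of tuba1b in any library was 1.1%.

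Beta tubulin was dominated by tubb4b, with 83.5% to 89.3% of the beta-tubulin FPKM. It had 1362 and 1538 FPKM in WT against 1691 and 1789 FPKM in mutants at stage I, and 1978 and 1878 against 1470 and 1386 FPKM at stage II. The groups did not overlap at either stage. The stage I rise (0.26 ± 0.09, adjusted p = 0.048) was lost under 14 alternatives. The stage II fall (-0.43 ± 0.09, adjusted p = 0.0071) was lost under quantile normalization and without mutant stage II replicate 2. The second gene, tubb2b, had 199 and 223 against 203 and 229 FPKM at stage I, with overlap, and fell at stage II from 307 and 367 to 206 and 186 FPKM (-0.77 ± 0.11, adjusted p = 0.0012).

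The low beta tubulin tubb5 was lower in mutants at stage I alone. It had 6.26 and 6.54 FPKM in WT against 0.544 and 0.618 FPKM in mutants at stage I, which put the WT mean 11.02-fold above the mutant mean (-2.23 ± 0.16, adjusted p = 4.0e-05). At stage II it had 4.11 and 3.73 against 5.27 and 3.95 FPKM, with overlapping groups and no call (0.18 ± 0.16, adjusted p = 0.40). The interaction was 2.41 ± 0.23 (adjusted p = 0.00026), the largest of the members on the log2(FPKM + 1) scale. The gene tubb6, which passed the minimum through the WT stage I libraries alone, had 2.41 and 1.74 against 0.110 and 0.220 FPKM at stage I, a 12.55-fold ratio of the WT to the mutant mean, and 0.737 and 0.413 against 0.491 and 0.996 FPKM at stage II.

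Of the 5 genes of gamma tubulin and its complex, 0 were higher and 1 lower in mutants at stage I in the limma fit. These counts were the same at an unadjusted p under 0.05. At stage II 1 was higher and 1 lower in the limma fit. The shares over all genes were 18.4% and 26.9% at stage I and 25.4% and 19.2% at stage II. The gamma-tubulin gene tubg1 had 6.93 and 6.24 FPKM in WT against 6.704 and 7.001 FPKM in mutants at stage I, and 16.6 and 19.1 against 17.02 and 19.53 FPKM at stage II. Its groups overlapped, and neither value passed (0.05 ± 0.13, adjusted p = 0.78, and 0.03 ± 0.13, adjusted p = 0.87). The calls in the ring complex genes, tubgcp4 at stage I (-0.54 ± 0.17, adjusted p = 0.033) and tubgcp2 and tubgcp5 at stage II (-0.38 ± 0.11, adjusted p = 0.029, and 0.38 ± 0.13, adjusted p = 0.040), were each lost on leaving out at least 1 library. The gene tubgcp3 passed at neither stage.

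From stage I to stage II most kinesins and most gamma-tubulin complex genes passed as higher in each genotype. Of the 61 members, 33 were higher and 10 lower at stage II in WT, or 54.1% and 16.4%, against 38.1% and 22.2% of all genes. In mutants 33 were higher and 13 lower, or 54.1% and 21.3%, against 47.3% and 18.7% of all genes. A stage difference was built into the choice of 6 members that reached 1 FPKM at 1 stage alone. Without them, 31 of 55 were higher and 9 lower in WT, and 30 and 10 in mutants. The shares over all genes were not recounted in this way. The stage comparisons reuse the libraries of the genotype comparisons. The median over all genes was 0.15 in WT and 0.32 in mutants, and each member's change is best read against it. Median-of-ratios scaling, which moved both medians to -0.02, gave 26 higher and 13 lower members in WT and 26 and 20 in mutants. Of all genes called under that scaling, 49.3% were higher in WT and 47.9% in mutants, beside 63.2% and 71.6% in the main fit. Stage I and stage II libraries were pools of different numbers of oocytes, and in such pools a change in the mix of cells and a change of RNA per cell cannot be told apart.

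Of the 11 spindle and cytokinesis kinesins, 10 were higher and 0 lower with stage in WT, beside 38.1% and 22.2% of all genes. In mutants 9 were higher and 0 lower, beside 47.3% and 18.7% of all genes. These are member counts of the limma fit, and were the same at an unadjusted p under 0.05. Under median-of-ratios scaling the counts were 9 and 1 in WT and 6 and 2 in mutants. Of all genes called there, 49.3% and 47.9% were higher. Under quantile normalization the member counts were 10 and 1 and 9 and 2, where 53.4% and 56.1% of all genes called were higher. The spindle motor gene kif11 went from 76.1 and 71.6 to 190 and 193 FPKM in WT and from 81.2 and 102 to 192 and 194 FPKM in mutants, log2 changes of 1.36 ± 0.10 (adjusted p = 3.5e-05) and 1.08 ± 0.10 (adjusted p = 6.8e-05). Every stage II library was above every stage I library. The rises of kif15 and kif18a were 1.11 ± 0.11 and 1.1 ± 0.12 in WT, and kif4 did not pass in either genotype.

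Among the other kinesins, 9 of 15 were higher with stage in WT and 10 in mutants, beside 38.1% and 47.3% of all genes. Without the 5 that reached 1 FPKM at 1 stage alone (kif13ba, kif17, kif1aa, kif26ab and kif26ba), 7 and 8 of 10 were higher. The shares over all genes still hold such genes. The gene kif13bb rose by 1.53 ± 0.16 (adjusted p = 0.00013) in WT, kif16ba, whose mammalian relative moves endosomes, by 1.26 ± 0.13 (adjusted p = 0.00015), and kif19, whose mouse relative trims cilia, by 1.2 ± 0.14 (adjusted p = 0.00026). The abundant kif5ba rose by 0.62 ± 0.12 (adjusted p = 0.0024) in WT and 0.79 ± 0.12 (adjusted p = 0.00061) in mutants. The gene kif7 fell with stage in both genotypes, and kif1aa, kif26ab and kif26ba were lower at stage II in mutants, as their choice through the mutant stage I libraries fixed.

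Of the 5 genes of gamma tubulin and its complex, 4 rose with stage in each genotype, all but tubgcp4 in WT (0.04 ± 0.17, adjusted p = 0.87) and all but tubgcp2 in mutants (-0.02 ± 0.11, adjusted p = 0.88). Of the 6 dynein light chains, 3 fell in WT and 4 in mutants, where dynlt3 rose. Over all genes 38.1% rose and 22.2% fell in WT, and 47.3% and 18.7% in mutants. The gene tubg1 gained 1.31 ± 0.13 in WT (adjusted p = 0.00010) and 1.29 ± 0.13 in mutants (adjusted p = 8.4e-05), tubgcp3 0.72 ± 0.08 and 0.69 ± 0.08, and tubgcp5 0.80 ± 0.13 and 1.23 ± 0.13. Dynactin's dctn1a gained 1.63 ± 0.13 in WT and 1.19 ± 0.13 in mutants, from 6.77 and 6.93 to 20.5 and 26.5 FPKM in WT. The light chain genes dynll1, dynll2b and dynlrb1 fell by 1.2 ± 0.15, 1.2 ± 0.11 and 0.79 ± 0.09 on the log2 scale in WT, and the same genes fell by 2.79 ± 0.15, 1.21 ± 0.11 and 0.89 ± 0.09 in mutants. The abundant dynll2a did not pass in WT (0.0060 ± 0.077, adjusted p = 0.96) and fell by 1.11 ± 0.08 on the log2 scale in mutants (adjusted p = 2.0e-05). Both hook2 genes fell as well, by 2.14 ± 0.28 (ENSDARG00000039309) and 1.64 ± 0.14 (ENSDARG00000099235) in WT.

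**Figure D5:**
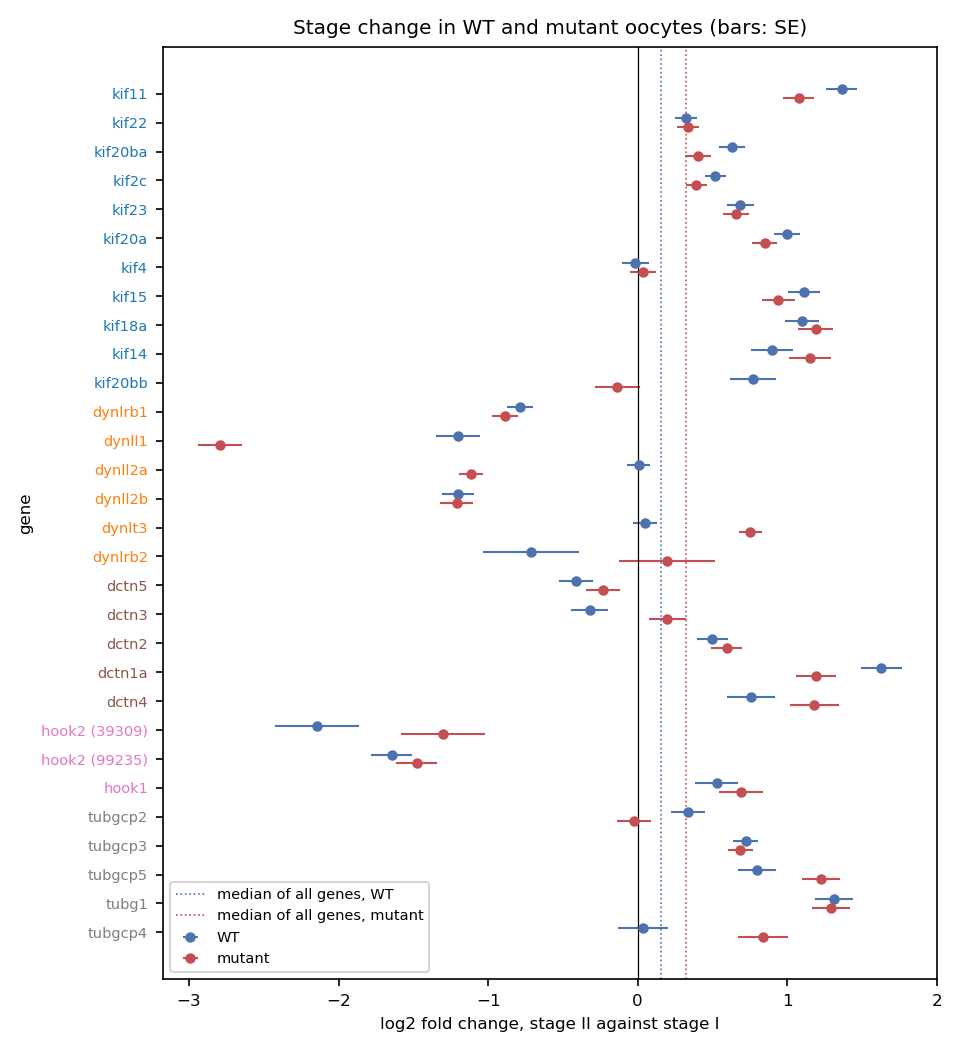
Log2 fold change from stage I to stage II (horizontal, points with bars of 1 SE) in WT (blue) and mutant (red) oocytes for the spindle kinesins, dynein light chains, dynactin, adaptors and gamma-tubulin complex (label colours). Dotted lines mark the medians of all genes, 0.15 in WT and 0.32 in mutants; most spindle kinesins and gamma-tubulin genes lie to their right, and dynll1, dynll2b, dynlrb1 and both hook2 genes to their left.

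The genotype effect differed between the stages for 19 members (31.1%, against 36.4% of all genes). Of these calls, 10 held under every alternative that tested the gene. Without WT stage I replicate 1 or mutant stage I replicate 2, fewer members and fewer of all genes were called. The 10 positive and 9 negative interactions became 6 and 10 under quantile normalization and 5 and 16 under median-of-ratios scaling. Of all genes called, 64.2% were positive in the main fit, and 52.5% and 47.1% under these alternatives. The balance of signs rests on the scaling, for the members and for all genes. The tubulins tubb5 and tuba8l, the light chain gene dynlt3 and kif7 were positive. Negative were dynll1, dynll2a, tuba1b and tubb2b (-0.81 ± 0.16, adjusted p = 0.0065). All of these calls held in every alternative that tested the gene. No alternative that tested tubb6 or kif1aa lost their calls, but leaving out either library that chose them took them out of the test. Their values follow in part from the group that chose them. Called higher with stage in WT and lower in mutants were tuba1b and tubb4b, 3.28% of the members beside 2.32% of all genes. The reverse held for tubb5 and tubb6, 3.28% beside 3.49%. The fall of tubb4b in mutants reversed under quantile normalization. The gene tubb5 fell by 0.59 ± 0.16 on the log2 scale in WT, a call lost without WT stage I or WT stage II replicate 2, and rose by 1.82 ± 0.16 in mutants. The gene tuba1b rose by 0.68 ± 0.11 in WT and fell by 0.66 ± 0.11 in mutants.

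Genes of the same machinery outside the name rule were counted in 7 lists, to be read against 18.4% of all genes higher and 26.9% lower at stage I and 25.4% and 19.2% at stage II. Dynein regulators and adaptors had 5 of 18 tested genes higher and 6 lower at stage I, and 5 higher and 2 lower at stage II. The kinesin light chain and partner list had 4 higher and 4 lower of 20, then 4 and 2. The plus-end and lattice binding proteins had 6 higher and 4 lower of 28, then 9 and 4. Severing and destabilizing proteins had 2 higher and 4 lower of 12, then 1 and 1. Tubulin folding and modification had 4 higher and 6 lower of 24, then 3 and 7. The axonemal dynein list had 3 higher and 2 lower of 8, then 2 and 1, and the spindle pole list 5 and 5 of 19, then 5 and 3.

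Some genes of these lists differed by large amounts. The Rab6 gene rab6ba, whose product recruits motors to Golgi vesicles, had 0.648 and 0.708 FPKM in WT against 8.48 and 9.34 FPKM in mutants at stage I (2.56 ± 0.16, adjusted p = 1.5e-05), and 3.91 and 3.92 against 0.879 and 1.27 FPKM at stage II (-1.25 ± 0.16, adjusted p = 0.00060). The kinesin-binding protein gene kifbp was at 6.53 and 10.04 FPKM in WT stage II and listed at 0 in both mutant stage II libraries. Stage I libraries held 4.82 to 6.37 FPKM, and a listed 0 may be a failed estimate. The dynein regulator gene ndel1a fell at stage I (-0.82, adjusted p = 0.0047) and rose at stage II (1.88, adjusted p = 0.00010). The augmin subunit gene haus6, of the complex that branches spindle microtubules, had 474 and 508 against 1071 and 891 FPKM at stage I and 151 and 151 against 296 and 278 FPKM at stage II, with a rise of 0.99 ± 0.10 (adjusted p = 0.00015) and 0.92 ± 0.10 (adjusted p = 0.00025). Its partner haus4 fell at both stages, by 1.01 and 0.67 on the log2 scale. The microtubule severing gene fignl1 had 19.7 and 17.1 against 7.50 and 7.79 FPKM at stage I (-1.16 ± 0.10, adjusted p = 6.9e-05).

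Marker sums of other cell types differed by genotype in several cases. The summed FPKM of 12 leukocyte markers was 4.11 to 5.18 in WT and 13.92 to 16.99 in mutants at stage I. At stage II it was 2.07 to 3.27 against 10.1 to 13.2. Of the 5 tested, 4 were higher and 0 lower in mutants at each stage. Whether any of them passed the minimum through mutant libraries alone was not counted. Over all genes 18.4% were higher and 26.9% lower at stage I, and 25.4% and 19.2% at stage II. The general leukocyte marker ptprc had no more than 0.238 FPKM in any library. For 13 granulosa and theca markers the sums were 254 to 275 against 104 to 109 at stage I and 95.9 to 124 against 336 to 355 at stage II. These were almost all cyp11a1 and cyp17a1, and the receptor gene fshr was listed at 0 in every library. Of the 4 granulosa and theca markers tested, 1 was higher and 2 lower at stage I, then 2 and 1 at stage II. Erythrocyte markers summed to 2.46 to 2.57 against 3.00 to 5.52 at stage I and 0.623 to 1.58 against 4.38 to 6.26 at stage II, and markers of stroma and vessels to 9.12 to 13.8 over all libraries. Ciliated cell markers summed to 1.14 to 1.71 in WT and 2.04 to 2.35 in mutants at stage I and to 1.23 to 1.67 against 2.14 to 2.49 at stage II. Neuronal markers summed to 5.35 to 5.87 in WT and 3.88 to 4.02 in mutants at stage I and to 5.53 to 6.60 against 5.25 to 6.44 at stage II. The part of these other cells in the genotype differences of the members was not tested.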

How the data were processed

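RNA of 8 oocyte pools (WT and mutant, stages I and II, 2 libraries each) was analysed. The 3 CUT&Tag libraries of the series were not analysed here. The authors deposited 1 table of FPKM per gene. Per the submitters' processing notes, Trim Galore, STAR 2.5.3a and Cufflinks 2.2.1 were used with the danRer11 build. How reads shared by near-identical genes were divided is not given in the sources used here. The table lists 32055 gene IDs in 32197 entries, of which 24 were exact repeats and dropped; 103 IDs whose entries disagree, none a member, stayed out.

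From the deposited FPKM, log2(FPKM + 1) was computed for the 13862 genes that reached 1 FPKM in 2 or more of 8 libraries. One limma fit (3.58.1 in R 4.3.3; 4 group means, eBayes with a trend, degrees of freedom of 4 residual and 3.78 prior) supplied all 5 contrasts. P-values were Benjamini-Hochberg adjusted over all genes, and calls are adjusted p under 0.05. The fit was also run on simulated independent noise, with far fewer changed genes than were called here. That run does not test the calls in these data. The alternatives are given below. The members and gene lists were chosen with earlier results of these data known, so no list was tested.

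Genes named were, per contrast, up to 12 rises and 12 falls of the largest size among calls without overlapping libraries, the most abundant gene of each class, symbols with several gene IDs, up to 8 interactions, and up to 3 genes of each list. Other members were named after their values were seen. All 61 member IDs were found in the reference names, 13 of them under another symbol. Gene order came from GRCz12tu, and no coordinates were used. Equal replicate numbers are not tied to a shared animal or batch in the labels.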

Additional observations from a re-analysis of the deposited data

Results flagged for a closer look

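The genotype effect differed between the stages for 19 members, as tested by the interaction term of the limma fit. Among the largest of these differences, 6 are given first. Each of the 6 calls held under every alternative that tested the gene, and the minimum mean of 5 FPKM left tubb5 untested. The difference between the stage II and stage I log2 effects was 2.41 for tubb5, 1.68 for kif7 and 1.08 for tuba8l. It was -1.59 for dynll1, -1.34 for tuba1b and -1.12 for dynll2a. The values of 1.53 for tubb6 and -0.99 for kif1aa are descriptions, since each gene passed the minimum through 1 group alone. Over all genes, 36.4% passed the same test. No group has more than 2 libraries, so single libraries could not be examined as outliers.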

How the results depend on the processing

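The number of members called ranged from 14 to 31 at stage I, 13 to 28 at stage II and 10 to 20 for the interaction when each library was left out in turn. The counts for the stage change in WT and in mutants stayed within 1.5 times of 43 and 46 under every alternative. With the replicate block the 5 counts were 29, 23, 42, 44 and 17. Between groups, deviations from the group means correlated at -0.04 to 0.06 over genes. Such values cannot tell whether libraries with equal replicate numbers share fish or a collection day, so the block is a check only. Of 113 called results for named genes, 75 kept the call under each of the 18 alternatives that tested the gene. The other 38 lost it under at least 1.

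A single called result reversed: tubb4b, lower with stage in mutants, was higher by 0.68 under quantile normalization (adjusted p = 0.00050). The cause was not tested. The other reversals were of values that did not pass in the main fit, all near 0 except that of tuba4l. At stage II tuba4l was at -0.23, and it passed as lower when either WT stage I library was left out. Under quantile normalization the reversed values were kif5ba (0.0861) and tubgcp2 (0.0764) at stage I, and tuba4l (0.0626) and tubg1 (-0.0699) at stage II. Under median-of-ratios scaling they were kif5ba (0.0668) and tubgcp2 (0.0811) at stage I, and dctn5 (-0.0244), kif11 (-0.0874), kif2c (-0.0371) and tubg1 (-0.0598) at stage II. Over libraries left out, stage I values ran from -0.28 to 0.0647 for dctn5, -0.15 to 0.0813 for kif5ba, -0.0149 to 0.12 for tubg1 and -0.0452 to 0.00011 for tubgcp2. Stage II values ran from -0.0026 to 0.0201 for kif11, -0.0101 to 0.26 for kif5ba and -0.0662 to 0.13 for tubg1. Depth is unknown, 2 libraries per group leave small changes untested, and values of near-identical tubulin copies may share reads.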
